A study of Mus musculus with 2 samples.

Results

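The chaperones of the endoplasmic reticulum described here are 10 genes, Hspa5, Hsp90b1, Pdia3, Pdia4, Pdia6, Creld2, Manf, Sdf2l1, Hyou1 and Dnajb9, of 12393 genes named on the arrays. They were read from every probe set that the platform annotation assigns to one of these symbols, 16 of 22626 probe sets other than controls. The members were selected on their symbols when the ratios between these arrays were already known, so the ratios are a description and carry no test. Expression was profiled on Affymetrix arrays in total RNA of the liver of mice without apolipoprotein E on a high-fat diet, with about 8 µg of RNA per target according to the labels. The array titled orujo holds liver RNA of mice on the diet enriched with unsaponifiable fraction, the minor components of olive oil left once its fatty acid esters are removed. The array titled olive holds liver RNA of mice on the diet enriched with olive oil itself. They are called the orujo array and the olive array. Both groups therefore share the missing Apoe gene and the high-fat diet, and no array of wild-type mice or of another diet was analysed here. Each label refers to more than 1 animal without saying how many there were, whether their RNA was pooled, or their sex and age. With 1 array per diet, differences between animals and between diets cannot be told apart.

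Proteins that enter the secretory pathway fold in the endoplasmic reticulum (ER), where chaperones bind unfolded chains and disulfide isomerases form and rearrange their disulfide bonds. When unfolded proteins accumulate there, the sensors IRE1, PERK and ATF6 start the unfolded protein response, and the transcription factors XBP1 and ATF6 raise transcription of chaperone genes. Hepatocytes make most plasma proteins, and their ER carries a large folding load. A known binding site of ATF6 and XBP1 in chaperone promoters is the ER stress response element, CCAAT followed after 9 bases by CCACG.

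The members' promoters were searched for this element on both strands, because ER chaperone genes are known to be induced through it. Only exact matches to its fixed bases were taken, so a window without a match may still hold a variant of the element. The ratios and the element are separate readings. Since the members are known ER chaperone genes, matches among them were likely beforehand and are given as a description. RefSeq promoter windows (build GRCm38.p6) run over 250 bases before and 50 bases after each transcription start, and 8 members had an entry. Hyou1 and Manf had none. The element was found in the windows of 4 of these 8 members, Hspa5, Hsp90b1, Pdia6 and Creld2, and in 0.119% of the 32851 windows of the table. Hsp90b1 held a pair of them. The 5 sites are shown 5′ to 3′ on the strand where they match, with the CCAAT and CCACG parts in capitals.
Hspa5, chr2:34772025-34772043, plus strand: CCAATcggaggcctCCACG
Hsp90b1, chr10:86705638-86705656, minus strand: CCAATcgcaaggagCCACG
Hsp90b1, chr10:86705533-86705551, plus strand: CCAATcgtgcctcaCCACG
Pdia6, chr12:17266491-17266509, plus strand: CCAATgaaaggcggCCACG
Creld2, chr15:88819520-88819538, minus strand: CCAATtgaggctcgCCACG

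The exact match of Hspa5 starts 65 bases before the start of the gene, and that of Pdia6 98 bases. That of Creld2 lies on the opposite strand 126 bases before the start. Variants of the element in these windows were not counted. Those of Hsp90b1 begin 212 and 107 bases before the start, the nearer one on the opposite strand. CCAAT alone occurred in all 8 windows searched and in 37.4% of the table's windows, and CCACG in 7 of 8 windows, Pdia3 being the exception, and in 32.8%. Both are parts of the element and overlap it. The second form of the element (ATTGG, 1 base, CCACG) was in 0 of the 8 windows and 0.0365% of all windows. TGACGTGG, a core bound by ATF6 and XBP1, was in 0 of 8 and 0.676%. TGATGNAA, a core of sites bound by ATF4 with its partners, was in 0 of 8 and 3.97%. The heat shock element bound by HSF1 (GAA, TTC and GAA with 2 bases between them) was in 0 of 8 and 0.603%. A match is a description of the letters in the window and not evidence of binding in these livers.

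The 250 bases before the start are shown for 4 members that span the range of ratios given below: Pdia4, with the lowest ratio and no match, Creld2 and Hspa5, both lower with a match, and Pdia6, with a match and the highest ratio. Each is written 5′ to 3′ on the strand of the gene, with the parts of the element in capitals; on the opposite strand they read CGTGG and ATTGG.
Pdia4 upstream region, chr6:47813513-47813762, minus strand: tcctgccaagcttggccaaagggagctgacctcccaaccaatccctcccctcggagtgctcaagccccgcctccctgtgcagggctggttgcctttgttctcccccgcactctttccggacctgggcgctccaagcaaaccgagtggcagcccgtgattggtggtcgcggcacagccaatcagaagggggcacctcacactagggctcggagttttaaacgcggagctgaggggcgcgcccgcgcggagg
Creld2 upstream region, chr15:88819396-88819645, plus strand: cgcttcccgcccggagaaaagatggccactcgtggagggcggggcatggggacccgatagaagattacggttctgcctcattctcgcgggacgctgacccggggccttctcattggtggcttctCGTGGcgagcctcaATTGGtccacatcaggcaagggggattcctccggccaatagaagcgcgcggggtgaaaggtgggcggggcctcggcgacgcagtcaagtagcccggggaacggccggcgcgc
Hspa5 upstream region, chr2:34771840-34772089, plus strand: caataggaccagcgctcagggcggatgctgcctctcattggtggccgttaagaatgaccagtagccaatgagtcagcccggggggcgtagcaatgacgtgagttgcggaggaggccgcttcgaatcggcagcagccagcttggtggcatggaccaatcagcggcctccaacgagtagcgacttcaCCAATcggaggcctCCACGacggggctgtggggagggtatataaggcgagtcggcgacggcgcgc
Pdia6 upstream region, chr12:17266339-17266588, plus strand: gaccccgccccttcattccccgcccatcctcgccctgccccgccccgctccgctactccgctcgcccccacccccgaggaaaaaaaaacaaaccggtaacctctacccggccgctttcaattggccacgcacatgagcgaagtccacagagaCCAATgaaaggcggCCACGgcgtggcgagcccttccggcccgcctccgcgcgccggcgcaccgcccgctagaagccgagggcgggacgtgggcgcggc

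**Figure D1:**
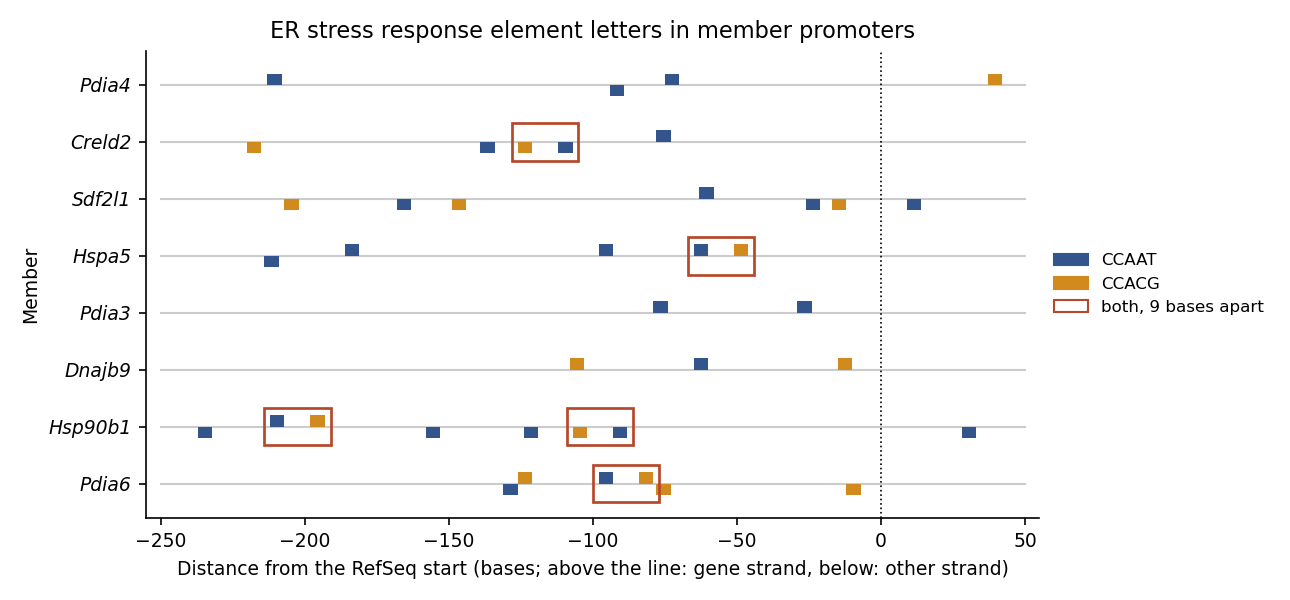
Positions of CCAAT and CCACG in the promoter windows of 8 members, in bases from the RefSeq start, with matches on the gene strand above each line and on the opposite strand below it; members are ordered from the lowest ratio at the top. Boxes mark the 5 places where both lie 9 bases apart, in Creld2, Hspa5, Hsp90b1 (a pair) and Pdia6.

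Members of this group mostly had lower signal on the orujo array than on the olive array, by amounts that differed widely between genes. Pdia4, Creld2, Manf, Sdf2l1 and Hyou1 were 1.59-fold to 2.68-fold lower, Hspa5 and Pdia3 were lower by 1.37-fold and 1.24-fold, Dnajb9 and Hsp90b1 lay within 1.07-fold, and Pdia6 was 1.11-fold higher. The median log2 ratio (orujo minus olive) over the 10 members was −0.56, against −0.02 over the 6640 measured genes. Of the members 9 had negative ratios, as did 52.5% of measured genes. A gene counts as measured if its brightest probe set lay on both arrays above a floor of 35.6, the median of both arrays' intensities pooled. All 10 members passed that floor on both arrays, so none entered through 1 array only. In liver RNA, fewer cells of a type and less RNA per cell cannot be told apart.

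At the 1.5-fold limit 5 of 10 members were lower and 0 were higher, where 5.56% of measured genes were lower and 5.57% higher. At 2-fold, 1 member was lower (Pdia4) and 0 were higher, where 0.979% and 1.36% of measured genes were. Hspa5 came next below the 1.5-fold limit at 1.37-fold, and Hyou1 lay nearest above it at 1.59-fold. By probe set, 6 of the 15 member probe sets above the floor were at least 1.5-fold lower and 0 were higher, where 5.59% of the 10462 probe sets above the floor were lower and 5.9% higher. Because the members were chosen with this contrast known, these shares are set beside the background and nothing is read from the gap.

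Several other readings also differed between the same arrays, not all of them in the direction of most members. Markers of pancreatic acinar cells, which carry a dense ER, were lower on the orujo array in all 15 measured genes of 24 with a named probe set, by a median log2 ratio of −2.52. A further 5 were above the floor only on the olive array and 4 on neither, among them Bhlha15, and none was listed at 0. Their summed scaled intensity was 1367 on the orujo array and 8035 on the olive array, with Ctrb1 at 59.3 on the orujo array and 777 on the olive array and Cpa1 at 70.7 on the orujo array and 799.5 on the olive array. The part of these transcripts in the lower chaperone signal was not tested.

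Of 12 plasma and B cell markers, 3 were measured, 1 was above the floor only on the orujo array and 8 on neither, and the summed intensity was 1112 on the orujo array and 683 on the olive array. Sdc1, which hepatocytes also express, made up 746 of the orujo sum and 332 of the olive sum. Neutrophil markers summed to 3775 on the orujo array and 819 on the olive array. Lcn2, also an acute phase gene of hepatocytes, made up 3308 of the orujo sum and 400.5 of the olive sum. Of 12 neutrophil markers, 6 were measured and 4 were above the floor only on the orujo array. Among the 6 measured, 4 ratios were negative and 2 positive, with a median log2 ratio of −0.07. Under other settings this median ranged from −0.11 to 0.34. Among the controls, the 18S ribosomal RNA probe set at the 5′ end was at 2294 on the orujo array and 395 on the olive array (log2 ratio 2.54), and its 3′ one at 5502 on the orujo array and 4343 on the olive array (0.34), with the middle one at a log2 ratio of 2.48, whereas the 5′ and 3′ Gapdh controls had log2 ratios of 0.15 and 0.11. The part of these readings in the members' ratios was not tested either.

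The system of Hspa5 covered the range from little difference to 2-fold. Hspa5 encodes BiP (GRP78), the abundant Hsp70 of the ER lumen, which holds the stress sensors inactive in unstressed cells. Its brighter probe set had a deposited intensity of 1738 on the orujo array and 2383 on the olive array, a log2 ratio of −0.45. Its second probe set had 787 on the orujo array and 1101 on the olive array, a log2 ratio of −0.48. The probe sets of Hspa5 therefore differed from each other by 0.03 log2 units, and both gave a signal lower by nearly the same factor, 1.37-fold and 1.40-fold.

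Hyou1 encodes GRP170, a large Hsp70-related chaperone that exchanges the nucleotide of BiP. Its brightest probe set had an intensity of 193 on the orujo array and 307 on the olive array, a log2 ratio of −0.67. A second had 79.8 on the orujo array and 160 on the olive array and a log2 ratio of −1.002. The third lay below the floor on both arrays, with 33.3 on the orujo array and 19.7 on the olive array, and has no ratio. Those of its probe sets that were above the floor were lower on the orujo array by 1.59-fold and 2.002-fold.

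Sdf2l1 encodes a stress-induced partner of an ER J-protein, which keeps misfolded proteins soluble. Its only probe set had an intensity of 119 on the orujo array and 192 on the olive array, 1.61-fold lower, with a log2 ratio of −0.69. Dnajb9 encodes ERdj4, a J-domain cochaperone that brings BiP to the sensor IRE1 and represses it. Its probe set had 651 on the orujo array and 694.5 on the olive array, a log2 ratio of −0.09. The signal of Dnajb9 thus differed by 1.06-fold between the arrays, while Hspa5, Hyou1 and Sdf2l1 differed by more. Hsp90b1 encodes GRP94, the Hsp90 of the ER, which folds integrins, Toll-like receptors and other clients. Its brighter probe set had 755 on the orujo array and 785.5 on the olive array, a log2 ratio of −0.05, and its dimmer one 500.5 on the orujo array and 541 on the olive array, a log2 ratio of −0.11. Both probe sets of Hsp90b1 placed it within 1.08-fold.

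**Figure D2:**
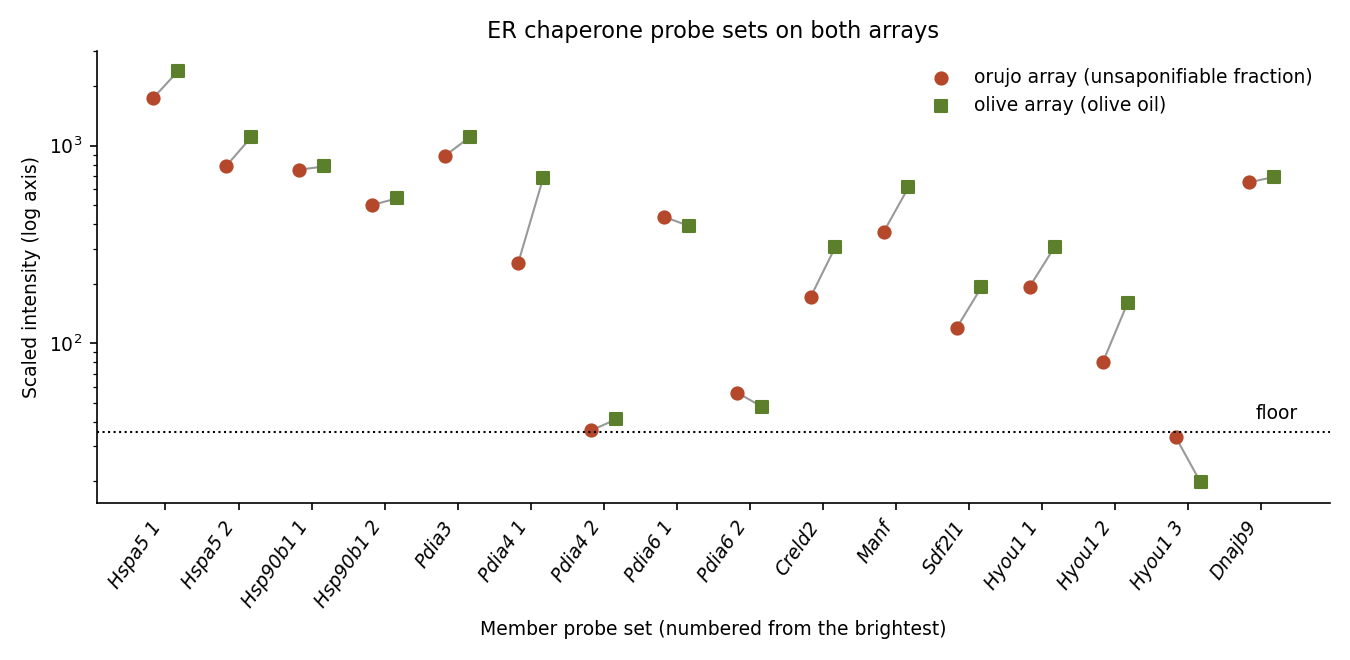
Scaled intensity (log axis) of the 16 member probe sets, the orujo array at the left of each pair and the olive array at the right, with the floor of 35.6 dotted; probe sets of a gene are numbered from the brightest. The steepest step is that of the brighter Pdia4 probe set, both Pdia6 probe sets slope the other way, and the third Hyou1 probe set lies below the floor on both arrays.

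The protein disulfide isomerases differed widely among themselves. Pdia4 encodes ERp72, an isomerase with thioredoxin-like domains that forms complexes with other ER chaperones. Its brighter probe set had an intensity of 256 on the orujo array and 687 on the olive array, 2.68-fold lower, and its log2 ratio of −1.42 ranked 29th from the lowest among 6640 measured genes. Its dimmer probe set had 36.1 on the orujo array and 41.2 on the olive array, 1.01 times the floor on the orujo array and 1.15 times on the olive array, and a log2 ratio of −0.19. The probe sets of Pdia4 shared a direction but differed by 1.23 log2 units, a gap that 16 of 2057 genes with 2 or more measured probe sets (0.778%) reached. Averaged over both probe sets, Pdia4 was 1.75-fold lower.

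Pdia3 encodes ERp57, the isomerase that works with calnexin and calreticulin on glycoproteins and in the loading of MHC class I. Its probe set had an intensity of 890 on the orujo array and 1109 on the olive array, a log2 ratio of −0.31. Pdia6 encodes P5, an isomerase that binds BiP and attenuates stress sensor signalling. Its brighter probe set had 435 on the orujo array and 392 on the olive array, a log2 ratio of 0.15. Its dimmer one had 56.0 on the orujo array and 47.5 on the olive array, a log2 ratio of 0.24. Pdia6 was the member with the highest ratio and the only one with a positive ratio in its brightest probe set.

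Manf and Creld2 encode small stress-induced proteins that are retained in the ER and can also be secreted. Manf, mesencephalic astrocyte-derived neurotrophic factor, binds BiP and protects secretory cells. Its probe set had an intensity of 365 on the orujo array and 615 on the olive array, 1.68-fold lower, with a log2 ratio of −0.75. Creld2, a cysteine-rich protein with EGF-like domains, had 171 on the orujo array and 307.5 on the olive array, 1.80-fold lower, with a log2 ratio of −0.85. Each was read from a single probe set, so no second reading of the same RNA exists for them.

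The only repeated measurement in these data is that between probe sets of a gene, which share RNA, labelling and hybridisation. Over the 2057 genes with 2 or more measured probe sets, the log2 ratios of the brightest pair differed with an SD of 0.43, or 0.30 for a single probe set. Of the 10 members, 5 had a second measured probe set (Hspa5, Hsp90b1, Hyou1, Pdia4 and Pdia6), and in all 5 the sign was shared. The dimmer Pdia4 probe set was at only 1.01 times the floor on the orujo array. The third Hyou1 probe set, below the floor on both arrays, went the other way, with 33.3 on the orujo array and 19.7 on the olive array. The ratios of Hsp90b1, Dnajb9 and Pdia6 were smaller than the SD of a single probe set, and that of Pdia3 about equal to it. Those of Pdia4, Creld2, Manf, Sdf2l1 and Hyou1 were each more than 2 times that SD away from 0. Over all measured genes the log2 ratios had a larger SD, 0.42. The ratios of Manf (−0.75), Sdf2l1 (−0.69) and Hyou1 (−0.67) were less than 2 times this larger SD. The spread between probe sets holds no variation between animals, so it says nothing about whether another pair of livers would give these ratios.

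**Figure D3:**
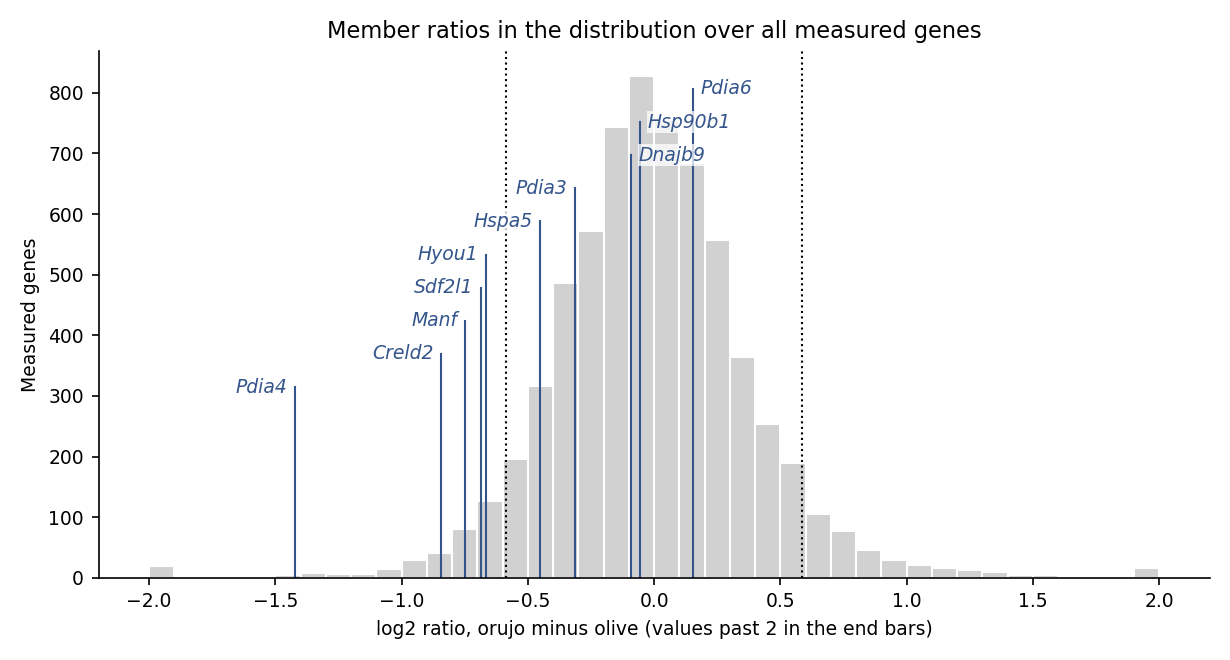
Histogram of log2 ratios (orujo minus olive) over 6640 measured genes, with values past 2 gathered in the end bars and the 10 members marked by lines of arbitrary height; dotted lines mark 1.5-fold. Pdia4 stands alone at −1.42, Creld2, Manf, Sdf2l1 and Hyou1 lie between −0.85 and −0.67, and Pdia6 is at 0.15.

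In the order of all measured genes from the lowest ratio, Creld2 was 119th, Manf 171st, Sdf2l1 227th and Hyou1 251st of 6640. Hspa5 was 685th and Pdia3 1264th. Dnajb9, Hsp90b1 and Pdia6 stood in the middle of the distribution, with 41.0%, 45.5% and 69.6% of genes at or below their ratios. The members with the ER stress response element were spread over the group: Creld2 (−0.85) and Hspa5 (−0.45) had lower signal, whereas Hsp90b1 (−0.05) and Pdia6 (0.15) differed little. Those with a window but no match ranged from Pdia4 (−1.42) through Sdf2l1 (−0.69) and Pdia3 (−0.31) to Dnajb9 (−0.09).

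Scaling changed these values little. Pdia4 kept a log2 ratio between −1.43 and −1.31 in its brighter probe set under every scaling, floor and log transform tried, Creld2 between −0.85 and −0.73 and Manf between −0.77 and −0.70. Hspa5 ranged between −0.54 and −0.44 in its brighter probe set, the lowest value coming from quantile normalization. With log2(value + floor), which shrinks ratios of dim genes, Sdf2l1 (log2 ratio −0.56) and Hyou1 (−0.58) fell short of the limit of 0.585 log2 units and 3 of 10 members remained at least 1.5-fold lower, where 2.57% of measured genes were.

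**Figure D4:**
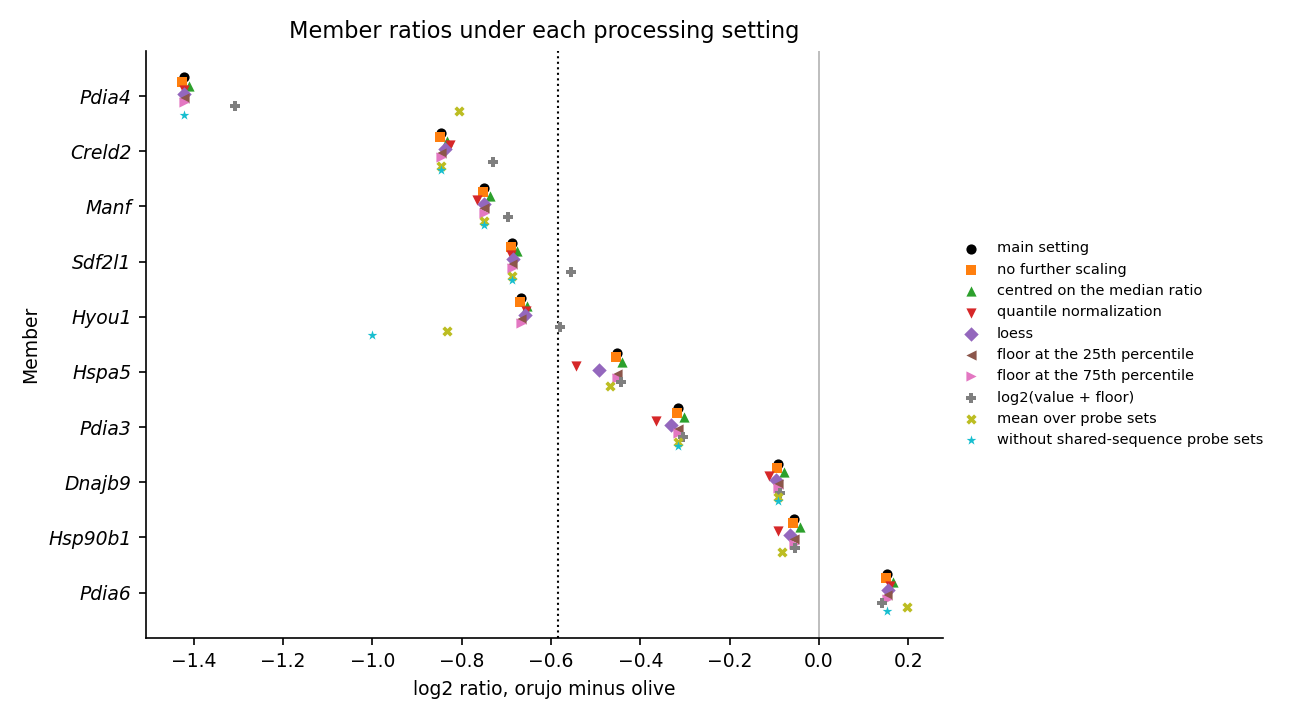
Log2 ratio (orujo minus olive) of each member under the main setting and 9 others, with 1.5-fold lower dotted and members ordered from the lowest ratio. Pdia4 moves to −0.81 when its probe sets are averaged and Hyou1 to −1.002 when probe sets matching several transcripts are left out; Hspa5 and Hsp90b1 have no value in that last setting, since all their probe sets are of that kind.

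Other genes of the folding machinery had ratios spread around 0. Of 26 other ER folding factors with a named probe set, 24 were measured, with 8 negative and 16 positive ratios and a median log2 ratio of 0.09. None of the 24 was at least 1.5-fold lower and 4 were at least 1.5-fold higher, where 5.56% and 5.57% of measured genes were; averaged over probe sets, 2 were higher. Calr, which encodes the lectin chaperone calreticulin, had a scaled intensity of 1679 on the orujo array and 2054 on the olive array (log2 ratio −0.29). Canx, for its membrane-bound partner calnexin, was at 0.02 and P4hb, for the founding disulfide isomerase PDI, at 0.09 on the log2 scale. The proteins of both Calr and Canx work with that of Pdia3 (−0.31). The ratio of Calr lay near that of Pdia3, with −0.26 and −0.14 in its other probe sets. Canx had −0.07 and 0.02 in its other probe sets.

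Qsox1, Pdia5 and Txndc5 led the higher end of these factors. Qsox1, a sulfhydryl oxidase, had a scaled intensity of 1288 on the orujo array and 443 on the olive array, 2.91-fold higher, with a log2 ratio of 1.14 in its other probe set. The isomerase Pdia5 was 1.61-fold and Txndc5 1.59-fold higher, Txndc5 with 0.21 in its other probe set. Fkbp11, a prolyl isomerase, was the lowest at −0.58, with 0.08 in its other probe set. The J-protein cochaperones of BiP did not move as one: Dnajb11 was at −0.19 and Dnajc3 at 0.41, with −0.63 to 0.21 in its 4 other probe sets. Uggt1, the glycoprotein folding sensor, passed the floor on the olive array alone and was at least 1.23-fold lower on the orujo array.

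Genes of the stress sensors and their transcription factors had a median log2 ratio of −0.02 among the 18 measured of 22 genes, with 10 negative and 8 positive ratios, 2 at least 1.5-fold lower and 2 at least 1.5-fold higher, beside 5.56% lower and 5.57% higher over all measured genes. The median lay between −0.03 and 0.04 over the alternatives, and 1 gene was lower and 1 higher with log2(value + floor). Xbp1, whose product induces chaperone genes, was at −0.16, with −0.06 to 0.33 in its other probe sets. Atf6 was at 0.06 and Eif2ak3, which encodes PERK, at −0.24. Ern1, which encodes IRE1, had a scaled intensity of 13.5 on the orujo array and 42.9 on the olive array, passed the floor on the olive array alone and was at least 1.20-fold lower on the orujo array. The log2 ratios of Xbp1, Atf6 and Eif2ak3 were smaller in size than that of Pdia3 (−0.31), and mRNA levels do not report splicing of Xbp1 or cleavage of ATF6.

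Values went both ways among Atf4, of the branch below PERK, and the measured genes of the sensor list with the largest ratios. Ddit3, which encodes the stress factor CHOP, had a scaled intensity of 37.3 on the orujo array and 71.7 on the olive array, 1.92-fold lower and close to the floor. Atf4 was at 0.53 on the log2 scale, with 0.21 in its other probe set, and Asns, asparagine synthetase and a target of ATF4, was 1.78-fold higher, with 37.8 on the olive array, close to the floor. Cebpb was 1.65-fold higher (log2 ratio 0.52 in its other probe set) and Nfe2l2, which encodes NRF2, 1.78-fold lower. Other genes of the list differed less, with Trib3 at −0.04, Chac1 at 0.01 and Ppp1r15a at 0.32 on the log2 scale. Cebpg was at −0.37, with 0.66 in its other probe set.

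The list of ER-associated degradation, which removes misfolded proteins, had a median log2 ratio of 0.07 among its 22 measured genes, with 0 at least 1.5-fold lower and 4 at least 1.5-fold higher, beside 5.56% and 5.57% of all measured genes. The 4 higher became 2 when probe sets were averaged and 0 with log2(value + floor). Erlec1, a lectin of this pathway, was 1.65-fold, Edem1 1.54-fold and Edem2 1.51-fold higher, though Edem1 was at −0.11 in its other probe set. Ufd1 was lowest at −0.47 (0.26 in its other probe set), and Herpud1, a stress-induced scaffold of the pathway, was at 0.31 with −0.03 in its other probe set.

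Translocon and signal peptide genes had a median of 0.08 over 26 measured genes, with 0 past 1.5-fold in either direction (5.56% lower and 5.57% higher over all measured genes); their median turned to −0.02 without probe sets that match several transcripts. They ranged from Srprb, a subunit of the signal recognition particle receptor, at −0.41 (−0.50 in its other probe set) to Ssr4, a translocon-associated protein, at 0.55. The other probe sets of Ssr4 had the opposite sign, at −0.33 and −0.12. The count past 1.5-fold holds for the brightest probe sets only. Among the others, Sec61a1 ranged from −0.02 to 0.89 and Tram1 was at 0.84, both past the limit at the higher end. The lowest of the others was Spcs2 at −0.56, short of the limit. Of the oligosaccharyltransferase, Dad1 was at 0.47, with −0.21 in its other probe set, and Rpn2 at 0.41. ER to Golgi transport genes had a median of 0.08 over 23 measured genes, 1 at least 1.5-fold lower and 2 higher, beside 5.56% and 5.57% of all measured genes, and 0 in either direction when probe sets were averaged. Kdelr2, a receptor that returns escaped chaperones to the ER, had a scaled intensity of 797 on the orujo array and 440 on the olive array (log2 ratio 0.86, with 0.09 in its other probe set). Sec24b, a coat subunit of transport vesicles, was at 0.67, with 57.8 on the orujo array and 36.4 on the olive array, close to the floor, and −0.07 in its other probe set. Sec24c, another such subunit, was at 0.45, and Arcn1, a COPI coat subunit, at −0.95, with −0.08 in its other probe set.

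**Figure D5:**
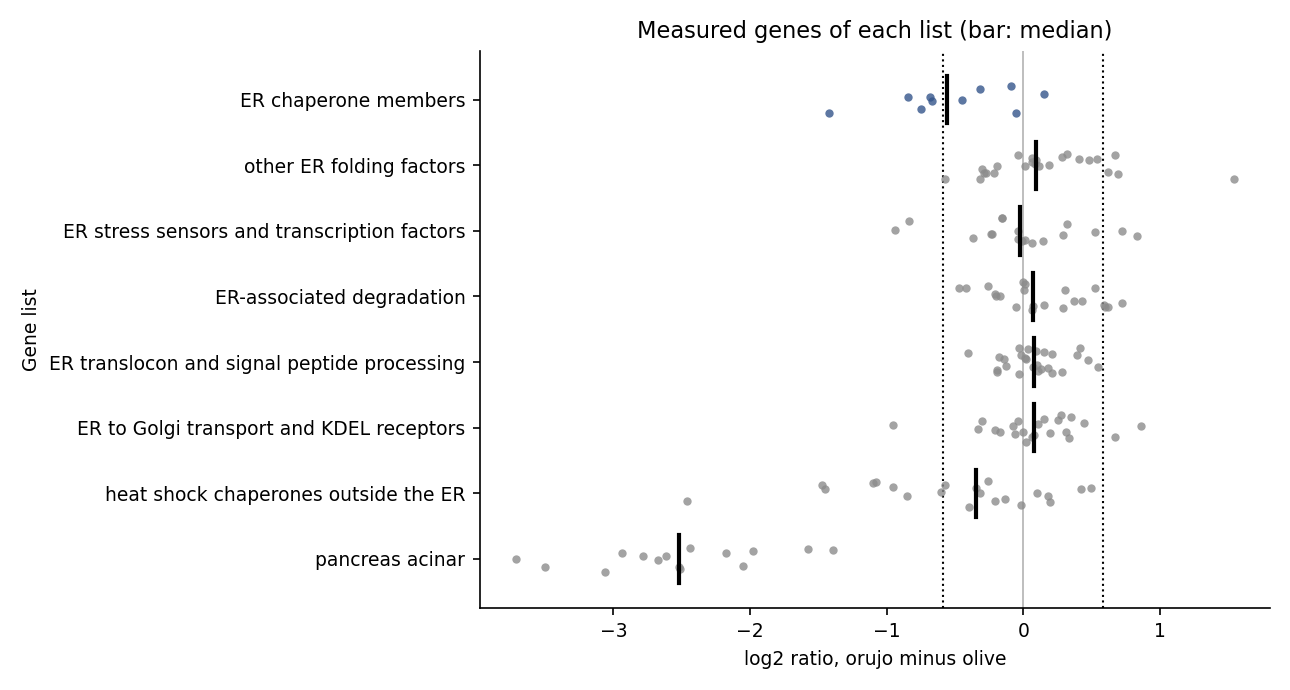
Log2 ratio (orujo minus olive) of each measured gene by list, 1 point per gene, with a bar at the median of the list and dotted lines at 1.5-fold. The members (median −0.56) and the heat shock chaperones outside the ER (−0.35) have medians left of 0, the other ER lists have medians between −0.02 and 0.09 (those of the sensors and of the translocon change sign under some settings), and the pancreas acinar markers lie at −2.52.

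Heat shock chaperones outside the ER, most of them cytosolic and with Hspd1 and Hspe1 mitochondrial, had more negative than positive ratios. The median log2 ratio was −0.35 among 21 measured genes of 23, with 16 negative and 5 positive ratios, where 52.5% of measured genes were negative. Of the 21, 8 were at least 1.5-fold lower and 0 higher, beside 5.56% and 5.57% of all measured genes, and 5 of 17 were lower without probe sets that match several transcripts. Hspb1, which encodes the small chaperone HSP25, was at −2.46, the inducible Hsp70 gene Hspa1b at −1.45, its cofactor Hsph1 at −1.47 and the constitutive Hspa8 at −0.60, while the J-protein gene Dnaja2 was at 0.49 and Hspd1 at 0.18. No test of the difference between this list and the ER members is possible with 1 array per diet.

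The label liver was borne out by its defining transcripts on both arrays: all 15 hepatocyte markers with a named probe set were measured, Alb with a scaled intensity of 7700 on the orujo array and 8095 on the olive array, and their median log2 ratio was 0.12 (−0.03 under quantile normalization). Medians were 0.11 over 15 Kupffer cell and macrophage genes, 0.12 over 9 endothelial genes and 0.28 over 9 stellate cell and fibroblast genes, and 0 of 6 cholangiocyte markers was measured. Apoe, the gene deleted in these mice, had a scaled intensity of 99.7 on the orujo array and 103 on the olive array and checks neither label, since the place of its probe set relative to the deletion is not known here. Intensities as deposited reached 8635 on the orujo array and 8103 on the olive array. Their precision is limited by the number of arrays, among the other limits given above.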

How the data were processed

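Linear probe set intensities were used as the authors deposited them; how they were summarised from the scans is not stated in the labels, and no detection calls were used here. Of 22690 deposited probe sets 64 are controls and were left out of the gene tables. Both arrays had been brought to a 2% trimmed mean of about 100.05. Each array was scaled to a common 2% trimmed mean, values were raised to a floor at the 50th percentile of both arrays (35.6), and log2 was taken (Python 3.11.15, pandas 2.3.3, numpy 2.4.6). Of 22626 probe sets, the platform annotation gave 1 symbol to 20380; those with several (691) or none (1555) were named for no gene. The brightest probe set stood for a gene. Log2 ratios are orujo minus olive. No test was possible with 1 array per diet, so genes are counted by fold. Alternatives were no scaling, median centring, quantile and loess normalization, other floors, log2(value + floor), the mean over probe sets, leaving out probe sets that match several transcripts, and other fold limits. The calculation was tested on simulated data, with planted changes larger than those of the members and only in bright probe sets. Members, gene lists and alternatives were chosen with earlier results of these data known. Named were all members, from each other list the highest and the lowest measured ratio with the 2 next largest, and a few regulators fixed by name, while cell markers are mostly given by count. Listed genes with no single-symbol probe set, Pdia2 among them, were not analysed here. Promoter sequences are from RefSeq.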

Additional observations from a re-analysis of the deposited data

How the results depend on the processing

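All 102 recomputed ratios of member probe sets stayed within 0.30 log2 units of their main value, the SD of a single probe set, and none changed sign. The members' median log2 ratio lay between −0.72 and −0.50 over 9 alternatives. It was −0.72 without probe sets that match several transcripts, which left 8 members. With log2(value + floor) 3 members were at least 1.5-fold lower in place of 5, and at 2-fold 1 was; 0 were higher under any setting. Of 422 recomputed medians and counts of the comparison lists, 354 stayed within 0.1 log2 units or 1.5 times and 68 did not, mostly counts of a few genes; the 8 heat shock chaperone genes outside the ER that were at least 1.5-fold lower became 5 without probe sets that match several transcripts, and 5 were at least 2-fold lower.

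Counts over all genes and probe sets followed the floor and the limit. With the floor at the 25th percentile, 870 genes were at least 1.5-fold lower and 743 higher (1465 and 1308 probe sets), and at the 75th percentile 148 and 184 (218 and 289 probe sets). With log2(value + floor) they were 171 and 201 (265 and 334 probe sets). At the lowest fold limit tried they were 1226 and 1070 (1917 and 1776 probe sets) and at 2-fold 65 and 90 (113 and 142 probe sets). Without probe sets that match several transcripts, 372 probe sets were lower and 388 higher, against 585 and 617 with them, as the number measured was 6631 in place of 10462. No paired analysis was possible because each diet has 1 array.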

Other observations

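The third probe set of Hyou1, below the main floor on both arrays, had a deposited intensity of 33.3 on the orujo array and 19.7 on the olive array. At the lower floor of the 25th percentile it gave a log2 ratio of 0.76, opposite in sign to the −0.67 and −1.002 of the brighter probe sets of the gene.

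The control probe sets for pyruvate carboxylase, an enzyme of gluconeogenesis, had higher intensity on the orujo array in all 4, with log2 ratios between 0.52 and 0.76.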
